A study of Mus musculus with 2 samples.

Results

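Integrins and the other surface molecules that hold blood stem cells in the bone marrow niche were examined as a set of 36 genes in LSK cells of nondiabetic and diabetic mice. The set was chosen by gene symbol, without regard to any measured value: 22 integrin subunit genes and 14 genes of other adhesion molecules (Vcam1, Icam1, Icam2, Selplg, Cd44, Pecam1, Esam, Jam2, Jam3, F11r, Alcam, Cdh2, Cd47 and Cd9). Of these 36 genes, 35 had a probe that could be named, out of 21360 genes named on the arrays, and Itgae had none. The 35 genes were read by 52 probes, 21 of them by 1 probe each and 14 by several.

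LSK cells are bone marrow cells without lineage markers that carry Sca1 and ckit, a mixture of hematopoietic stem cells and early progenitors. There were 2 groups of female C57BL/6J mice per the labels, nondiabetic and STZ-induced diabetic, and the cells of 3 mice made up each of the 2 samples. Streptozotocin (STZ) is a toxin of the pancreatic beta cell, so its effects on other cells and those of the high glucose that follows cannot be told apart here. The paper gives male mice, for its transplantation experiment and in its reporting summary, whereas the labels of these arrays give female mice. The age of the mice and the time between STZ and the sort are not given in the sources used here. From each sample 8.3 ng of total RNA was amplified, labeled with Cy3 and hybridised to 1 Agilent array.

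An integrin is a dimer of an alpha and a beta subunit, and the dimer decides which ligand a cell can hold. Blood stem cells use integrins of the Itgb1 family to hold Vcam1, fibronectin and laminin in the niche, and leukocytes use those of the Itgb2 family to hold Icam proteins on vessel walls. Integrins rest in a bent form until talin and kindlin bind the beta tail inside the cell. Selplg, Cd44 and the junction molecules of endothelium take part in homing, and Cd47 and the tetraspanin Cd9 act beside integrins in the membrane.

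The values are processed intensities in arbitrary units, corrected for background within each array. For ratios, each array was scaled by its 75th percentile of intensity, which was 168 on the nondiabetic and 182 on the diabetic array, and every log2 ratio is diabetic over nondiabetic after that scaling. The files flag a spot as well above background, and this held for 62.7% of the spots on the nondiabetic and 63.9% on the diabetic array, with 0 saturated spots. A gene well above background on 1 array alone has a bound ("at least N-fold") against the lowest intensity that passed on the other array, 10.2 (nondiabetic) or 10.1 (diabetic), or the dim probe's own value where higher. With 1 array per condition, no test between the conditions and no p-value was possible. The log2 ratio of probes printed repeatedly had a median SD between spots of 0.25, 0.13 and 0.065 in the dimmest, middle and brightest of 3 equal classes of probe intensity. The error that the scanner software gives with each spot came to an SD of 0.145 to 0.388 for the log2 ratio of the 40 adhesion gene probes measured on both arrays, with a median of 0.205. Each ± below is that scanner SD, and neither error covers differences between mice, sorts or amplifications.

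Most adhesion genes stood close together on the 2 arrays, and a minority stood more than 2-fold apart in both directions. On the diabetic array Pecam1, F11r and Cd9 were 2.34-fold to 5.32-fold higher, whereas Itga3, Alcam and Icam2 were 2.12-fold to 7.04-fold lower, all measured on both arrays. Bounds added Itgb4 to the higher genes and Itga5, Itgax and Icam1 to the lower genes. The main niche integrin genes Itga4, Itga6 and Itgb1 were all within 2-fold by the probe that stood for the gene, which was the probe of highest mean signal.

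By that probe 26 of the 35 genes (74.3%) were well above background on both arrays, against 63.0% of all named genes. Counting ratios and bounds, 4 of 31 adhesion genes (12.9%) reached 2-fold higher, against 11.0% of all named genes, while 6 of 31 (19.4%) reached 2-fold lower, against 10.1%. Counting genes measured on both arrays alone, 3 of 26 (11.5%) were higher, against 9.44%, and 3 of 26 (11.5%) were lower, against 8.44%. The shares of higher genes were near those of all genes, and the larger share of lower genes rested on 3 bounds. Of the 26 measured ratios, 13 were above 0 and 13 below. The median log2 ratio of the adhesion genes was -0.05 over these 31, beside 0.02 over all named genes.

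The 2-fold genes were spread over the range of intensity. Of 5 adhesion genes measured in the dimmest class, 1 was past 2-fold in either direction (Itga3), where 23.0% of all genes were. Of 5 in the middle class, 1 was past 2-fold (Alcam), where 25.1% of all genes were. Of 16 in the brightest class, 4 were (Pecam1, F11r, Cd9 and Icam2), or 25.0%, where 8.01% of all genes were. Just inside the limit lay Cd9 at 1.22 and Icam2 at -1.09, and just outside it Itgal at 0.96 and Itgb2 at -0.69. All 6 measured genes past 2-fold had only 1 probe, so no second probe could be set beside them.

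**Figure D1:**
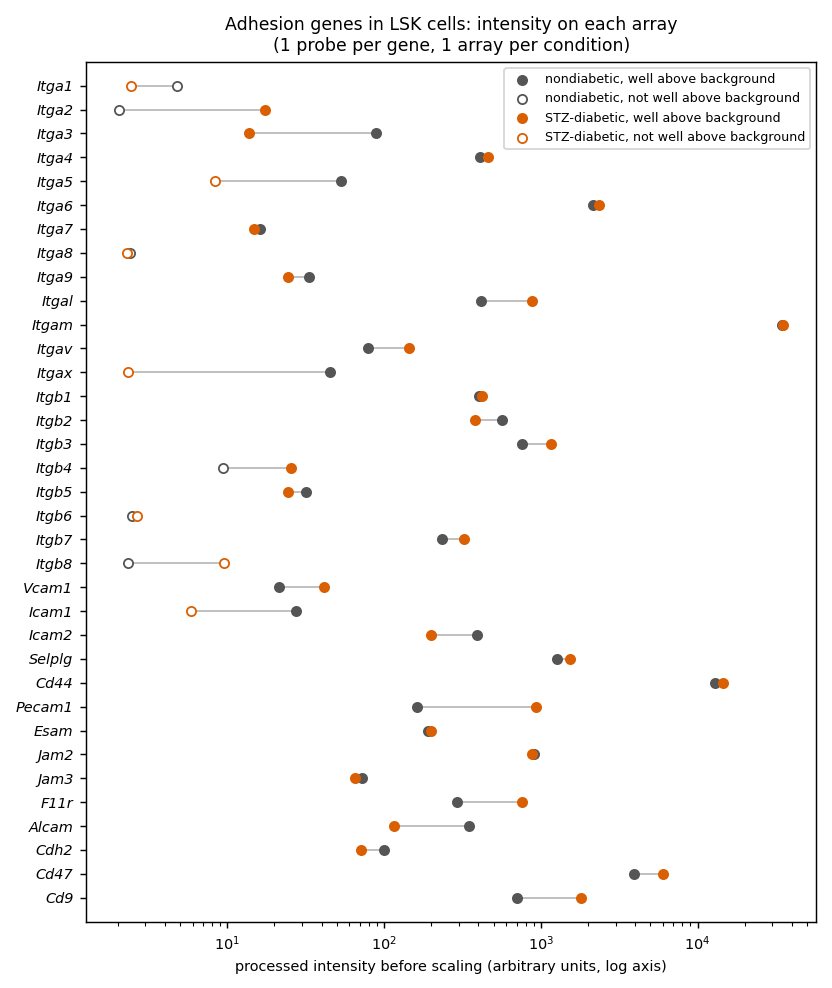
Processed intensity of the 35 adhesion genes on the nondiabetic (grey) and STZ-diabetic (orange) array on a log axis in arbitrary units, by the probe that stands for each gene, with open circles where the probe was not well above background. Pecam1 (162 and 936) and Itga3 (88.7 and 13.7) lie far apart, whereas Itga4, Itga6, Itgam, Itgb1, Esam and Jam2 nearly coincide.

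**Figure D2:**
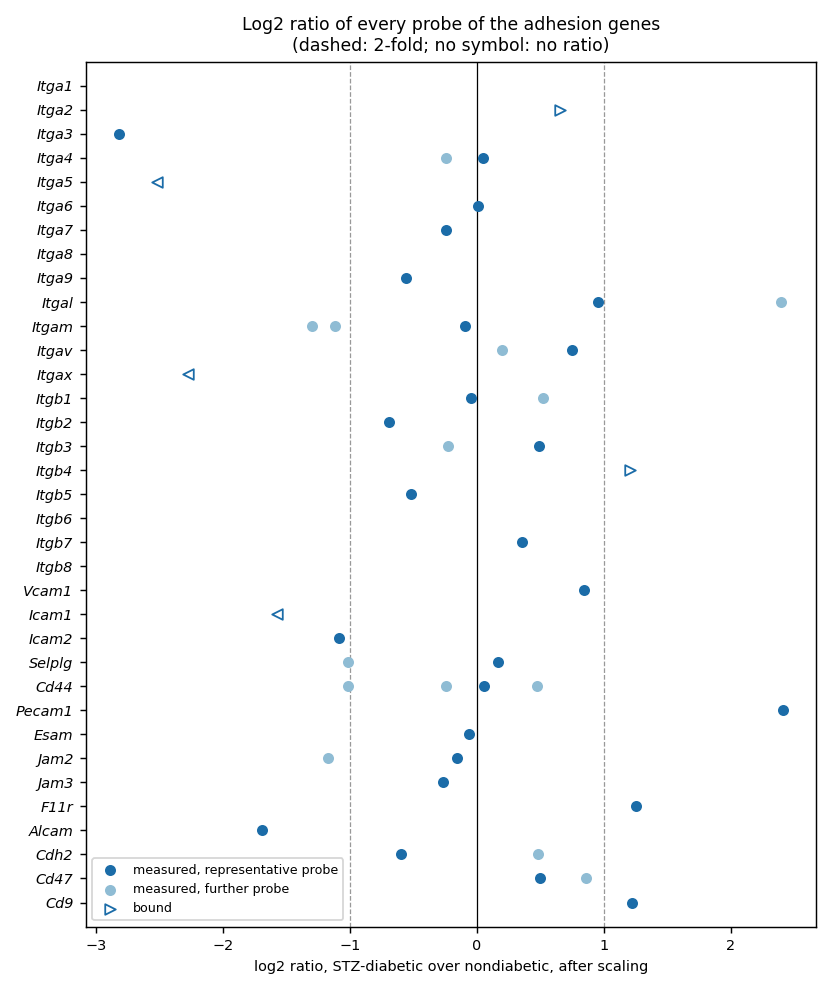
Log2 ratio, diabetic over nondiabetic after scaling, of every adhesion gene probe with a ratio, with dark circles for the probe that stands for the gene, pale circles for further probes and triangles for bounds that point away from 0. Dashed lines mark 2-fold. Pecam1 lies at 2.41 and Itga3 at -2.82, and the probes of Itgal, Itgam, Selplg, Cd44, Jam2 and Cdh2 are spread over more than 2-fold.

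The Itgb1 integrins of the stem cell niche were led by subunits with little difference. Itga4, which pairs with Itgb1 to bind Vcam1 and fibronectin, had an intensity of 412 on the nondiabetic and 463 on the diabetic array, a log2 ratio of 0.05 ± 0.20. Its other probe gave 132 and 121, a log2 ratio of -0.24 ± 0.21. Itgb1 itself, the common partner of these alpha subunits, gave 403 and 424 (-0.05 ± 0.20) with 1 probe and 182 and 283 (0.52 ± 0.21) with the other. Both genes thus had probes on either side of 0, and every one of these 4 probes was within 2-fold. Itga6, the laminin receptor subunit by which stem cells are often recognised, gave 2146 and 2343, a log2 ratio of 0.01 ± 0.20.

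Of the other alpha subunits that pair with Itgb1, Itga3 and Itga5 were lower on the diabetic array. Itga3, another laminin receptor subunit, had an intensity of 88.7 on the nondiabetic and 13.7 on the diabetic array, a log2 ratio of -2.82 ± 0.33 or 7.04-fold lower, and -1.05 with normexp background correction. Itga5, the fibronectin receptor subunit, gave 53.1 on the nondiabetic array but 8.30 and no detection on the diabetic one, and was at least 5.72-fold lower. Both had low intensities on the diabetic array, 1 just above and 1 below the limit of detection. Itga9, a receptor subunit for tenascin and osteopontin, gave 33.3 and 24.5 (-0.56 ± 0.28). Itga7, a laminin receptor subunit best known from muscle, gave 16.3 and 14.9 (-0.25 ± 0.39). Itga2, a collagen receptor subunit, was undetected in the nondiabetic sample (2.05) and gave 17.5 in the diabetic one, at least 1.58-fold higher.

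Neither array detected (well above background) Itga1, Itga8, Itgb6 or Itgb8 by the probe that stood for the gene, and these 4 genes have no ratio. Itga1, another collagen receptor subunit, gave 4.74 and 2.41, and Itga8 gave 2.40 and 2.29. Itgb6, an epithelial subunit, gave 2.48 and 2.67, and Itgb8, like Itgb6 a partner of Itgav, gave 2.31 and 9.57. The further probes of Itga1 (2.23 and 2.06) and Itgb6 (2.52 and 2.51) stayed undetected too. For these genes a difference was not detectable at this signal, which is not a sign that the transcript was absent.

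The leukocyte integrins of the Itgb2 family went different ways. Itgb2, their common beta subunit, gave 567 on the nondiabetic and 382 on the diabetic array, a log2 ratio of -0.69 ± 0.20. Itgal, which forms with Itgb2 the receptor for Icam1 and Icam2, was higher on the diabetic array with both of its probes, but by unequal amounts. Its probe with the higher mean signal gave 417 and 878 (0.96 ± 0.20), just short of 2-fold, and the other gave 39.2 and 224 (2.40 ± 0.22, 5.27-fold).

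Itgam, the alpha subunit of the myeloid complement receptor, gave 34686 on the nondiabetic and 35189 on the diabetic array with the probe that stood for the gene, a log2 ratio of -0.10 ± 0.20. Its other probes gave 284 and 142 (-1.12 ± 0.21) and 111 and 49.2 (-1.30 ± 0.22), both lower by more than 2-fold. The 3 probes are all below 0 and over 2-fold apart. Itgax, the alpha subunit used to recognise dendritic cells and the next protein-coding gene to Itgam on mouse chromosome 7, gave 44.9 on the nondiabetic array but 2.33 on the diabetic one, below the limit of detection, and was at least 4.84-fold lower.

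Because the samples are bulk RNA, fewer cells of a type and less RNA per cell cannot be told apart for Itgax or for any other gene here. All 6 granulocyte and monocyte markers with a probe were detected on both arrays and summed to 43213 and 42277, most of which was Itgam itself. Of the others, Mpo gave 2731 and 1851 (-0.68), Csf1r 5003 and 4284 (-0.34, with -1.17 by another probe), and S100a8 52.2 and 20.4 (-1.48), all lower on the diabetic array, whereas Elane gave 192 and 295 (0.50) and S100a9 548 and 637 (0.10). The 4 dendritic cell markers, Itgax among them, summed to 7229 and 8615. Of these, H2-Ab1, a class II antigen gene, gave 1241 and 2383 (0.82), and Flt3 959 and 1184 (0.19). Siglech, a plasmacytoid marker, gave 4984 and 5046 (-0.10). Its other probe was undetected in the nondiabetic sample (6.02) and gave 18.9 in the diabetic one, at least 1.70-fold higher. Itgax, lower by more than 2-fold, thus stood apart from the rest of its list. The part of such cells in the Itgam and Itgax results was not tested.

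Integrins that bind vitronectin and related ligands were higher or lower by less than 2-fold. Itgav, their alpha subunit, gave 79.5 and 145 (0.75 ± 0.21) with the probe that stood for it and 89.1 and 111 (0.20 ± 0.21) with the other. Itgb3, the beta subunit shared with platelets, gave 763 and 1159 (0.49 ± 0.20) with 1 probe and 814 and 754 (-0.23 ± 0.20) with the other, on opposite sides of 0. Itgb5 gave 32.0 and 24.3 (-0.52 ± 0.27). The platelet partner of Itgb3, Itga2b, is not among the 36 genes and gave 69.2 and 93.1 (0.31). Itgb7, which pairs with Itga4 for homing to gut vessels, gave 233 and 323 (0.35 ± 0.21). Itgb4, the laminin receptor subunit that pairs with Itga6 in epithelia, was undetected in the nondiabetic sample (9.35) and gave 25.5 in the diabetic one, at least 2.31-fold higher. No beta subunit measured on both arrays was past 2-fold in either direction, and of 8 measured alpha subunits only Itga3 was.

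Vcam1, the ligand of the Itga4 integrins and the marker by which the study recognises abnormal stem cells in diabetes, was near the limit of detection. Its probe that passed on both arrays gave 21.4 on the nondiabetic and 41.6 on the diabetic array, a log2 ratio of 0.84 ± 0.26, or 1.79-fold higher. With normexp background correction that ratio was 0.27. The other Vcam1 probe gave 10.03 and 2.52 and was detected on neither array. Among the 3744 genes measured in the dimmest class, which holds this probe, 531 (14.2%) had a ratio as high or higher. Macrophages of the marrow carry Vcam1 too, and the 5 macrophage markers, Vcam1 included, summed to 628 on the nondiabetic and 339.9 on the diabetic array. Most of both sums was Cd68, which gave 561 and 251 (-1.28). Adgre1 gave 15.3 and 31.9 (0.94), and its other probe, undetected in the nondiabetic sample (6.88) and 31.6 in the diabetic one, was at least 2.86-fold higher. C1qa gave 16.0 and 13.7 (-0.34), and Mertk (14.7 and 2.04) was undetected in the diabetic sample. The part of macrophage RNA in the Vcam1 result was not tested.

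Icam1 and Icam2, ligands of the Itgb2 integrins, were lower on the diabetic array. Icam1, the form induced by inflammation, gave 27.6 on the nondiabetic array but 5.85 on the diabetic one, below the limit of detection, and was at least 2.98-fold lower. Icam2, the constitutive form of endothelium and leukocytes, gave 389 and 199, a log2 ratio of -1.09 ± 0.20 or 2.12-fold lower. Icam2 therefore lay just past the 2-fold limit, by less than the scanner SD. The direction of Icam1 and Icam2 was opposite to that of Itgal, for which both probes were higher. Another Icam gene, Icam5, was higher and is given below.

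The homing receptors Selplg and Cd44 had high intensities and probes that did not move together. Selplg, the ligand of P-selectin, gave 1260.4 and 1537 (0.17 ± 0.20) with the probe that stood for the gene and 1162 and 622 (-1.02 ± 0.20) with the other. Cd44, a receptor for hyaluronan and the base of another selectin ligand, gave 12871 and 14501 (0.05 ± 0.20) with the probe that stood for it. Its further probes gave 1213 and 649.8 (-1.02 ± 0.20), 85.8 and 129 (0.47 ± 0.21), and 15.2 and 14.0 (-0.24 ± 0.37). For both genes 1 probe was just past 2-fold lower while the probe that stood for the gene was near 0.

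Pecam1 had the highest ratio of the adhesion genes. Pecam1, a junction protein of endothelium that platelets, leukocytes and early progenitors also carry, had an intensity of 162 on the nondiabetic and 936 on the diabetic array, a log2 ratio of 2.41 ± 0.15 or 5.32-fold higher. It was the only adhesion gene whose probe was printed more than once. Its 2 spots gave 168 and 910.1 (2.32) and 156 and 962 (2.51), so both spots showed the difference.

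Markers of cells that carry Pecam1 did not all move with it. Of 6 endothelial markers, 5 were detected on both arrays by the probe that stood for the gene. All 5 had ratios below 0, from -0.11 for Kdr to -1.30 for Emcn, and the 6 summed to 1533 and 1448. Kdr made up 844 and 848 of these sums, but its other probe was detected on neither array (3.00 and 2.61). The other Plvap probe was undetected on both arrays too (8.61 and 2.08). Cdh5, the defining cadherin of endothelium, was detected on neither array (2.52 and 2.47). Of 6 megakaryocyte and platelet markers, 5 were measured and all 5 had ratios above 0, from 0.31 for Itga2b to 1.52 for Gp9, and the 6 summed to 2277 and 3436, while Ppbp was undetected on both arrays. The part of endothelial or megakaryocyte RNA in the Pecam1 result was not tested.

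The other junction genes of vessels were close on the 2 arrays, except F11r. Esam, a junction protein of endothelium that also marks stem cells, gave 191 and 199 (-0.06 ± 0.21). Jam2 gave 908 and 884 (-0.16 ± 0.20) with the probe that stood for it and 34.8 and 16.7 (-1.17 ± 0.29) with the other. Jam3, the partner of Jam2 and a receptor on stem cells, gave 72.3 and 65.2 (-0.27 ± 0.22). F11r, another member of this junction family, gave 293 on the nondiabetic and 758 on the diabetic array, a log2 ratio of 1.25 ± 0.20 or 2.39-fold higher. Among the JAM genes F11r was higher and every probe of Jam2 and Jam3 was below 0.

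The homotypic adhesion genes of the niche were lower by the probe that stood for them. Alcam, an immunoglobulin protein by which stem cells and osteoblasts hold each other, gave 347 on the nondiabetic and 116 on the diabetic array, a log2 ratio of -1.69 ± 0.21 or 3.23-fold lower. Cdh2, the cadherin proposed to tether stem cells to bone, gave 100.3 and 71.7 (-0.60 ± 0.21) with 1 probe and 41.3 and 62.6 (0.48 ± 0.22) with the other, on opposite sides of 0.

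Cd9 and Cd47, membrane partners of integrins, were higher on the diabetic array. Other tetraspanins went either way and are given below. Cd9, a tetraspanin found on platelets and stem cells that binds integrins sideways in the membrane, gave 708 on the nondiabetic and 1795 on the diabetic array, a log2 ratio of 1.22 ± 0.20 or 2.34-fold higher. Cd47, the signal that spares cells from macrophages and a partner of Itgb3 integrins, gave 3927 and 6003 (0.50 ± 0.20) with 1 probe and 906 and 1783 (0.86 ± 0.20) with the other. Both Cd47 probes were higher and both were within 2-fold. Platelets carry Cd9, and the megakaryocyte markers above were higher too. Their part in the Cd9 result was not tested.

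Promoter sequence is shown for F11r and Cd9, higher together, and Alcam, lower, being the 3 genes past 2-fold on both arrays whose annotated start is the first base of the gene in the RefSeq promoter table (GRCm38.p6). Each is the 250 bases before the start, 5′ to 3′ on the gene's strand, with GC boxes (GGGCGG on either strand) in capitals. F11r lies on the plus strand at chr1:171437311-171437560, Cd9 on the minus strand at chr6:125494761-125495010, and Alcam on the minus strand at chr16:52453082-52453331.
F11r: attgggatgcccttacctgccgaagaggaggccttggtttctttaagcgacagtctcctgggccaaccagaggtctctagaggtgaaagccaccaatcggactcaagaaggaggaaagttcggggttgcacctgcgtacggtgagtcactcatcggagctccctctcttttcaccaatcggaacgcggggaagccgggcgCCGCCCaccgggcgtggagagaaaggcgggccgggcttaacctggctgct
Cd9: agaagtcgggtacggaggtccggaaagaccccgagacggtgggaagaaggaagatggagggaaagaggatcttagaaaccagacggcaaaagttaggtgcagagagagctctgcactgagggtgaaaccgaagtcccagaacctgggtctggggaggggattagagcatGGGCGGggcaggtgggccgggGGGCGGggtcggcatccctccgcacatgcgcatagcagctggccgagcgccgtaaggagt
Alcam: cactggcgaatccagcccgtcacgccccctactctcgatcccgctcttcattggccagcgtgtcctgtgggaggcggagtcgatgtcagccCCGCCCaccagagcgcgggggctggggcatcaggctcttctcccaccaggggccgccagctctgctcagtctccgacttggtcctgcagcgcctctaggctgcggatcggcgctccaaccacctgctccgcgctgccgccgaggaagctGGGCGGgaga
The F11r promoter held 1 GC box, and those of Cd9 and Alcam 2 each, so genes that were higher and a gene that was lower shared the letters. The table gave a promoter for 21 of the 36 genes, and the same 250 bases were searched in each, on both strands. A GC box was found in 11 of these 21 (52.4%) and in 35.4% of the 27025 genes in the table, and the median GC content was 60.4% and 52.4%. The letters TATAAA were found in 0 of 21, and in 14.3% of all genes. The letters CCAAT were found in 5 of 21 (23.8%) and in 37.5% of all genes, CCGGAA in 4 (19.0%) and in 13.6%, and AGATAA in 2 (9.52%) and in 11.4%. These are matches of letters and no measure of binding.

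**Figure D3:**
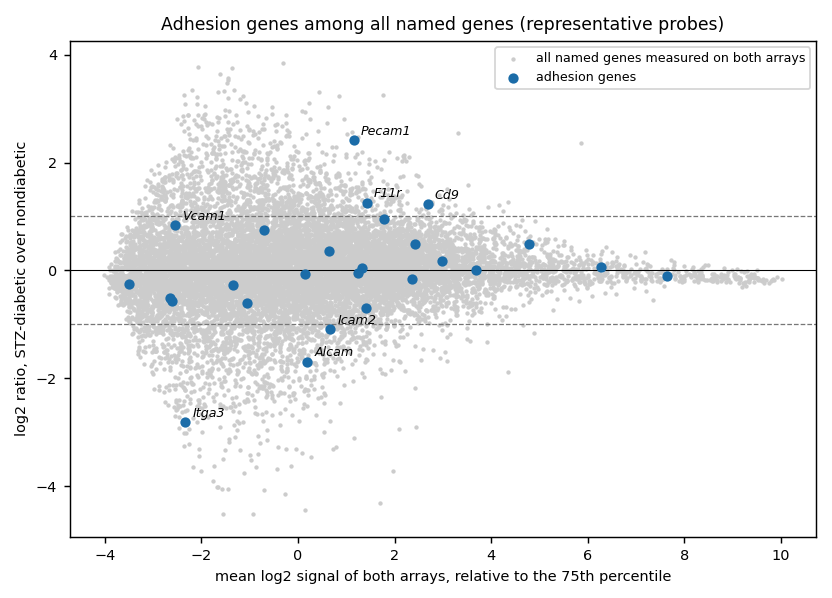
Log2 ratio, diabetic over nondiabetic, against the mean log2 signal of both arrays relative to the 75th percentile, for all named genes measured on both arrays (grey) and the 26 adhesion genes among them (blue), with dashed lines at 2-fold. Pecam1, F11r and Cd9 lie above and Icam2 below the bulk of genes of like signal. Alcam lies at middle signal and Itga3 and Vcam1 at low signal, and the spread of all genes is wide at both.

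Where a gene had several probes, they often disagreed. Of the 11 adhesion genes with at least 2 measured probes, 6 had ratios of opposite sign (Itga4, Itgb1, Itgb3, Selplg, Cd44 and Cdh2), or 54.5%, against 48.9% of 3245 such genes on the arrays. Likewise 6 of 11 (54.5%) had probes over 2-fold apart (Itgal, Itgam, Selplg, Cd44, Jam2 and Cdh2), against 35.4%. Another 5 genes were past 2-fold by a probe that did not stand for the gene, Itgal higher and Itgam, Selplg, Cd44 and Jam2 lower. By any probe, 5 of the 35 adhesion genes (14.3%) reached 2-fold higher, beside 10.4% of all named genes, and 10 (28.6%) reached 2-fold lower, beside 9.62%. A gene with several probes has more chances to pass by any of them. Probes of 1 gene share the RNA and the array and can read different transcript ends, so they are not replicates.

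The genes that switch integrins on, and the complex that ties them to actin, held differences of either sign. Of 28 such genes, 26 had a ratio or bound, and 6 of them (23.1%) reached 2-fold higher and 4 (15.4%) reached 2-fold lower, beside 11.0% and 10.1% of all named genes. Their median was 0.18, beside 0.02 over all named genes. Higher on the diabetic array were Apbb1ip, the Rap1 effector that brings talin to integrins, from 119 to 572 (2.15), Bcar1, an adhesion scaffold, from 16.5 to 64.7 (1.85), and Vcl, vinculin, from 79.0 to 194 (1.18). Vcl was higher by its other probe too (1.88). Bounds were at least 7.84-fold for Actn1, an actin crosslinker, 3.70-fold for Ptk2, the focal adhesion kinase, and 2.75-fold for Parvb, a parvin. The other Parvb probe was detected on neither array (4.03 and 2.42).

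Lower in the same list were Pxn, paxillin, from 416 to 116 (-1.96), Itgb1bp1, a suppressor of Itgb1 activation, from 269 to 115 (-1.34), and Ilk, the integrin-linked scaffold, from 279 to 136 (-1.15). The other Itgb1bp1 probe was at least 2.51-fold higher, so the direction of this gene is not settled. Src, a kinase of the complex, was at least 3.08-fold lower. Talin (Tln1, 738 and 756) and the blood cell kindlin (Fermt3, 88.0 and 119), which bind the beta tail, had log2 ratios of -0.08 and 0.32, and the other Tln1 probe gave 0.60. Rap1b (3909 and 4243), Parvg (3264 and 2973) and Flna (1226 and 1109) had ratios of 0.00, -0.25 and -0.26.

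Of 16 genes of matrix and other niche ligands of integrins, 8 were detected on neither array and 8 had a ratio or bound, with a median of -0.33. Of these 8, 1 (12.5%) reached 2-fold higher and 3 (37.5%) reached 2-fold lower, beside 11.0% and 10.1% of all named genes. Lower on the diabetic array were Fn1, fibronectin and the ligand of Itga5, from 106 to 20.3 (-2.51), Col4a1, a basement membrane collagen, from 114 to 25.3 (-2.29), and Thbs1, a ligand of Cd47, from 189 to 81.8 (-1.33). Lamc1, a laminin chain, was at least 8.95-fold higher, and Madcam1, the ligand of Itga4 with Itgb7, gave 235 and 177 (-0.53) by 1 probe and was at least 1.40-fold higher by the other, dimmer one. Fn1 and its receptor subunit Itga5 were thus both lower. The 7 markers of stromal cells, which make much of this matrix, summed to 295 on the nondiabetic and 261 on the diabetic array. Only Cxcl12 and Pdgfrb among them passed on the nondiabetic array, and Col1a1 passed on neither. Their part in these results was not tested.

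The selectin list contained no gene past 2-fold. All 12 genes had a ratio or bound, with a median of -0.01. Cd34, a stem cell sialomucin, gave 3888 and 4902 (0.22, with -0.09 by its other probe), and Fut7, which fucosylates selectin ligands such as Selplg, gave 910.4 and 616 (-0.68, with -0.05 by its other probe).

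Among 11 tetraspanins and Cd47 partners, the median was -0.08, and 1 gene (9.09%) reached 2-fold higher and 2 (18.2%) reached 2-fold lower, beside 11.0% and 10.1% of all named genes. Cd82, a tetraspanin of stem cells, went from 77 to 384 (2.21) by the probe that stood for it, but its other probes gave 0.97 and -1.96, on opposite sides of 0. Cd151, a tetraspanin partner of the laminin receptors Itga3 and Itga6, went from 247 to 102 (-1.39), with -0.64 by its other probe, and Thbs1 is given above. Cd151 and Itga3 were both lower, whereas Itga6 was near 0. Cd63 gave 1002 and 2018 (0.89), Cd81 1283 and 1667 (0.26) and Cd37 799 and 705 (-0.30). The other Cd37 probe gave 254 and 794 (1.53), so the direction of Cd37, like that of Cd82, is not settled.

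The relatives of the Icam and junction genes also went both ways. Of 15 genes, 13 had a ratio or bound, with a median of 0.02. Of these 13, 1 (7.69%) reached 2-fold higher and 4 (30.8%) reached 2-fold lower, beside 11.0% and 10.1% of all named genes. Icam4, an erythroid Icam, gave 447.5 on the nondiabetic array but 2.41 on the diabetic one, at least 48.3-fold lower, and Icam5, a neuronal Icam, went from 16.9 to 52.0, 2.83-fold higher. Lower were also Ncam1 from 133 to 13.3 (-3.44), Jaml, a leukocyte relative of the JAM proteins, from 169 to 48.3 (-1.92), and Emcn, an endothelial mucin, from 111 to 49.2 (-1.30). The diabetic value of Ncam1 was near the limit of detection. Its other probes were detected on neither array (10.2 and 2.44, and 2.58 and 2.59). Icam1, Icam2 and Icam4 were thus lower and Icam5 higher. The 5 erythroid markers summed to 3150.4 on the nondiabetic and 6933 on the diabetic array, in the direction opposite to Icam4, led by the hemoglobin gene Hba-a1 (1984 and 4967, 1.21). Mcam gave 69239 and 65149.6 (-0.21) by the probe that stood for it, but its other probe was detected on neither array (5.33 and 2.45). Cd99 gave 1509 and 1824 (0.16).

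The genes of the sort gate and of stem cell identity, except Slamf1, were detected on both arrays. Kit gave 4635 and 4735 (-0.09) and Ly6a, the gene of Sca1, 475 and 701 (0.44). Flt3 gave 959 and 1184 (0.19), Cd48 353 and 408 (0.09), and Ly6e 9885 and 10000.1 (-0.10). Slamf1, a marker of stem cells, was undetected in the nondiabetic sample (5.29) and gave 28.7 in the diabetic one, at least 2.59-fold higher. B cell markers summed to 217 and 301, and among them Cd79a was higher, from 39.3 to 121 (1.51). T and NK cell markers summed to 3593 and 2846, of which Nkg7 made up 3291 and 2582, and the other Nkg7 probe went the other way (103 and 204, 0.87). Of the other members, Klrd1 was at least 4.12-fold higher and Cd3d and Cd3g were at least 2.74-fold lower. The part of these cells in the adhesion gene results was not tested.

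**Figure D4:**
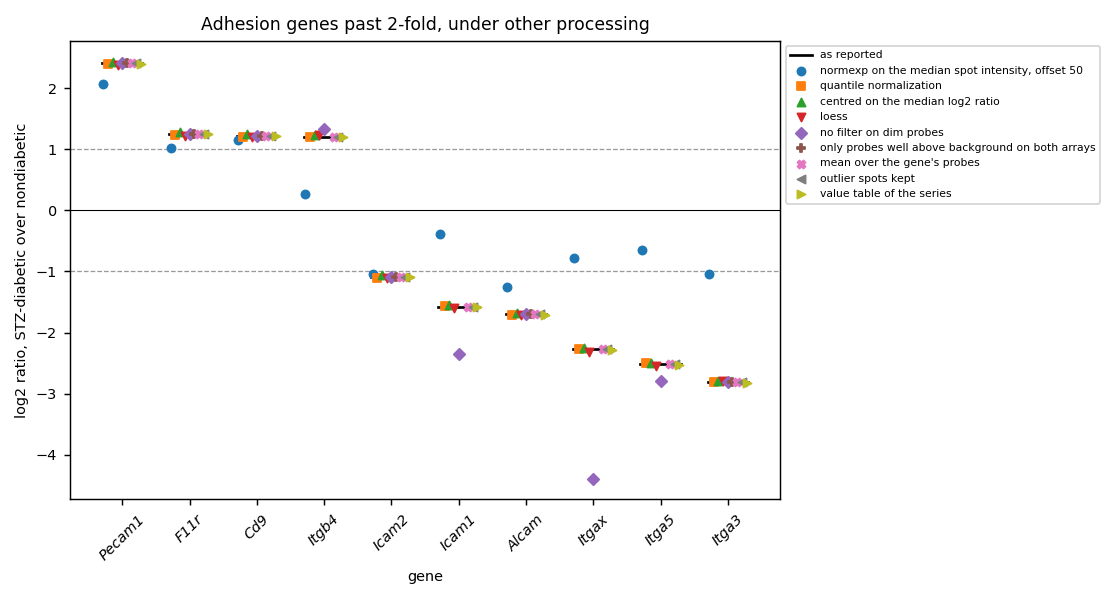
Log2 ratio, diabetic over nondiabetic, of the 10 adhesion genes past 2-fold (black bars, as reported) and under 9 other ways of processing (symbols), with dashed lines at 2-fold. The 6 genes measured on both arrays stay past the line under each, and the 4 bounds (Itgb4, Icam1, Itgax and Itga5) fall inside it under normexp background correction.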

How the data were processed

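LSK cell RNA was read on 2 Agilent arrays, 1 per condition. For each array the authors deposited Agilent Feature Extraction output (version 11.5.1.1, grid mm9) with processed intensity and its error per spot, corrected for background and not normalized between arrays. The deposited value table holds the same intensity times a constant, and how that constant was set is not given in the sources used here. Here log2 intensity minus each array's 75th percentile was used, in Python 3.11.15 with numpy 2.4.6 and pandas 2.3.3, and limma 3.58.1 in R 4.3.3 for normexp, quantile and loess. The 314 spots with an outlier flag on any array were dropped from both, and spots were averaged per probe. Transcript identifiers were matched without versions to a RefSeq table (GRCm38.p6), which named 31845 of 59305 spots. Where a gene had several probes, that of the highest mean signal was taken.

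The arrays' number limits the precision, both arrays share 1 slide and 1 scan, and no test was run. All 36 genes are named with every probe, and of the further lists each gene past 2-fold, up to 3 genes of high intensity and the sort genes. A few further list genes (Tln1 and Fermt3, and markers) were added after their values were seen, and 1 list gene is not reported here. The genes, lists and limits were chosen with earlier results of these data known. The scripts were tested on simulated data, and other settings are given below.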

Additional observations from a re-analysis of the deposited data

How the results depend on the processing

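The counts of adhesion genes past 2-fold, 4 higher and 6 lower, were unchanged under quantile normalization, centring on the median ratio, loess, keeping outlier spots and using the deposited value table. Under normexp background correction (on the median spot intensity, offset 50) the lower count was 3, and it was also 3 when bounds were left out, so that probes had to pass on both arrays. Both settings lost the bounds Itga5, Itgax, Icam1 and Itgb4. The higher count was 8 with a 1.5-fold limit. Without a filter on dim probes Itga1, Itga2 and Itgb8 passed as well, and with the mean over probes Itgal did. Normexp moved 21 of 31 log2 ratios by more than the SD between spots, among them Itga3 (-1.05 in place of -2.82), F11r (1.02) and Vcam1 (0.27 in place of 0.84). No gene past 2-fold changed direction, but ratios near 0 changed sign. With the mean over probes Itga4 (-0.10), Itgb1 (0.24), Selplg (-0.42) and Cd44 (-0.18) did, and Itga6 did under quantile normalization (-0.02), loess (-0.0038) and the value table (-0.0032). Signal over background left 4 of 35 genes without a ratio and 5 with a bound only. No paired analysis was possible because there is a single array per condition, and for the same reason no replicate could be left out in turn.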
